A study of Mus musculus with 8 samples.

Results

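The genes described here encode the chemokines, small secreted proteins that draw cells along a concentration gradient, and the receptors on the cell surface that bind them. They were chosen by symbol alone, as genes named Ccl, Cxcl, Cx3cl, Xcl, Ccr or Cxcr with a number and read by a probe set that is matched to exactly 1 gene symbol. This gave 48 of the 18193 genes measured, 33 ligands and 15 receptors. Each gene was read by its probe set of highest mean intensity, and the members were put in order by their correlation over the arrays with a macrophage mean, the average log2 intensity of Ctss, Tyrobp and Fcer1g.

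The cells were primary mesenchyme of the embryonic mouse palate, taken at embryonic day 13.5 and harvested after 2 passages in culture. All embryos were of the C57BL/6J strain and carried the floxed Tgfbr2 alleles (Tgfbr2 fl/fl). The 4 mutant samples also carried Wnt1-Cre (Tgfbr2 fl/fl; Wnt1-Cre), which acts in the neural crest and removes the floxed part of this TGF-beta receptor gene there, and the 4 control samples did not. Cells of other lineages in these cultures, such as macrophages, are not a target of this Cre. Titles of the control samples call them Tgfbr2 wildtype and do not mention the floxed alleles. The labels do not tie samples to embryos. The p-values therefore reflect only how far these samples differ from each other, and that spread may be technical. Each sample was hybridised to 1 expression array, and this number of arrays limits the precision of every value. The study set out to ask what loss of TGF-beta signalling does to the metabolism of these cells, and the genotypes are its only comparison.

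Chemokines are grouped by the spacing of their first cysteines into CC, CXC, C and CX3C families, and their receptors are G protein-coupled receptors that turn on Gi proteins, PI3 kinase gamma and Rac to steer the cell. Fibroblasts and other stromal cells make many of the ligands, among them Ccl2 and Cxcl1, when NF-kB is active. Receptors such as Ccr1, Ccr2 and Cx3cr1 sit mainly on monocytes and macrophages. In the embryo, Cxcl12 and its receptor Cxcr4 guide migrating cells, including cells of the neural crest.

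Several facts of the whole series bear on these genes. Tgfbr2 itself read 12.42 ± 0.47 against 12.04 ± 0.40 (mean log2 intensity ± SD, mutant against control, n = 4 each), a difference of 0.37 with adjusted p = 0.538 in limma. Where its probes lie relative to the deleted part is not given, so this did not check the genotype labels, and every direction rests on them. Tgfbr2 also had r = 0.98 with the macrophage mean over the 8 arrays. The part of macrophage content in its value was not tested. The macrophage mean was 14.34, 14.29, 14.40 and 12.86 in mutants 1 to 4 and 13.78, 13.93, 12.74 and 12.47 in controls 1 to 4. The arrays thus fell into 2 sets, 5 between 13.78 and 14.40 and 3 (mutant 4, control 3 and control 4) between 12.47 and 12.86. A list of 20 further macrophage markers gave the same division, and 19 of the 20 were above the median probe set (6.94) on every array. Of 15 palatal mesenchyme markers, 13 were above that level in at least 1 genotype and 11 on every array. The palatal factor genes Osr2 and Tbx22 were not above it in either genotype. Markers above the median probe set on every array were 2 of 11 for T and NK cells, 3 of 7 for neutrophils, 3 of 6 for B cells, 2 of 6 for dendritic cells, 0 of 6 for mast cells, and 2 of 10 each for endothelial and epithelial cells. By the bioB hybridisation control, replicates 1 and 2 of both genotypes read low (6.34 to 6.52) and replicates 3 and 4 high (8.24 to 8.79). In whole cultures like these, fewer cells of a type and less RNA per cell cannot be told apart.

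Of the 48 members, 32 had a genotype mean above the median probe set in at least 1 genotype, 27 ligands and 5 receptors, and 25 lay above it on every array. The 5 receptors were Cxcr4, Ccr1, Ccr2, Cxcr3 and Ccr10. The other 16 members were dim, with values between 4.49 and 7.42 on single arrays. They comprised the ligands Xcl1, Cxcl9, Ccl1, Ccl22, Ccl11 and Cxcl15 and the receptors Cxcr6, Cxcr5, Ccr1l1, Ccr4, Ccr8, Cxcr2, Ccr6, Ccr9, Ccr3 and Ccr7. Genotype differences of these dim members lay between -0.16 and 0.33, and their smallest unadjusted p in limma was 0.0633. The 6 members with the brightest probe sets were Ccl2, Cxcl1, Cxcl5, Ccl7, Ccl9 and Ccl12, all ligands, an order of probe signals and not of RNA amounts.

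Mutant and control cultures did not differ past the threshold in any chemokine gene. None of the 48 members had an adjusted p under 0.05 in limma, where 0.0879% of all genes had one. An unadjusted p under 0.05 was reached by 4 members (8.33%) against 15.5% of all genes. All 4 read higher in mutant arrays, against 5.84% of all genes in that direction, and 0 members read lower at that p, against 9.69% of all genes. For the same 4 members all mutant arrays lay above all control arrays. Such separation was found in 2.89% of all genes with mutants higher, 5.18% with mutants lower and 8.07% in either direction, and in 0 members with mutants lower. The median difference was 0.035 over the members and -0.0078 over all genes, with 26 members above 0 and 22 below. These 4 genes were Cxcl16, Cxcr3, Ccr2 and Ccl28, whose values by array stand in the top row of the plot by genotype. Read by the mean over a gene's probe sets, or by its probe set of largest variance, Ccl25 took the place of Ccl28 at that p, lower in mutants and without overlap.

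**Figure D1:**
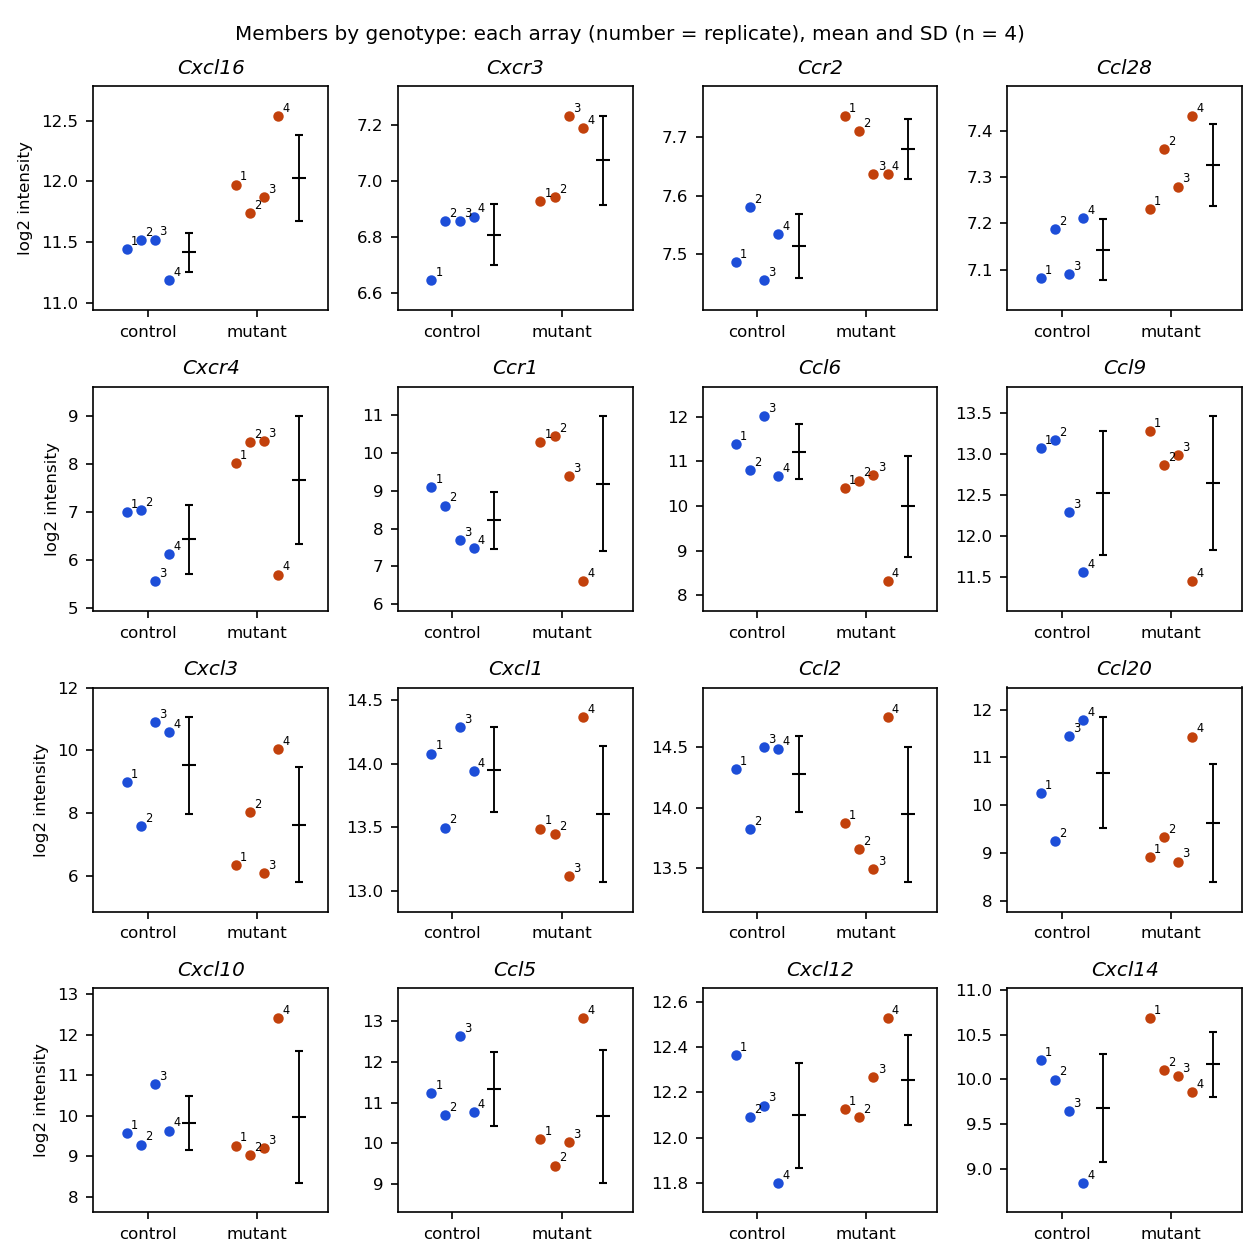
Log2 intensity of 16 members on each array, 4 control and 4 mutant, with numbers giving the replicate and bars the mean and SD (n = 4). Only the 4 genes of the top row have no overlap between genotypes, and in Cxcr4, Ccr1, Ccl6, Cxcl10 and several others mutant 4 lies far from mutants 1 to 3.

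Cxcl16 encodes a membrane-bound chemokine that is also a scavenger receptor, made by macrophages and stromal cells. It read 11.97, 11.74, 11.87 and 12.54 in mutants 1 to 4 and 11.44, 11.52, 11.52 and 11.19 in controls 1 to 4. Every mutant array lay above every control array, and the gap between the lowest mutant and the highest control was smaller than the gap between mutant 4 and the next mutant. The difference was 0.61 (SE 0.17, 95% interval 0.22 to 1.01), or 1.53-fold, with unadjusted p = 0.00723 and adjusted p = 0.192 in limma. Without mutant 4 it was 0.44 (adjusted p = 0.0534), within the arrays of low bioB 0.37 and within those of high bioB 0.85. Its receptor gene Cxcr6 was among the dim members.

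The other 3 genes without overlap read close to the median probe set and differed by small amounts. Cxcr3, a receptor of activated T cells, read 6.93, 6.94, 7.23 and 7.19 in mutants 1 to 4 and 6.65, 6.86, 6.86 and 6.87 in controls 1 to 4. Its difference was 0.26 (SE 0.10, adjusted p = 0.272 in limma), and the values of both genotypes lie around the median probe set of 6.94. Ccr2, the receptor through which monocytes follow Ccl2, read 7.74, 7.71, 7.64 and 7.64 in mutants 1 to 4 and 7.49, 7.58, 7.45 and 7.53 in controls 1 to 4. It differed by 0.17 (SE 0.066, adjusted p = 0.285 in limma), 1.12-fold, and its arrays ranged over 0.28 in all. The dimmer probe sets of Ccr2, all under the median, differed by -0.039, 0.55 and 0.20 (unadjusted p = 0.717, 0.0308 and 0.0627 in limma). Their r with the macrophage mean was -0.12, 0.87 and 0.45. Ccl28, a ligand of mucosal epithelia, read 7.23, 7.36, 7.28 and 7.43 in mutants 1 to 4 and 7.08, 7.19, 7.09 and 7.21 in controls 1 to 4. The difference was 0.18 (SE 0.075, adjusted p = 0.296 in limma), and -0.030 on its probe set of largest variance. Ccr10, the receptor for Ccl28, read 7.53, 7.53, 7.48 and 7.63 in mutants 1 to 4 and 7.25, 7.37, 7.48 and 7.51 in controls 1 to 4, and the lowest mutant lay under the highest control.

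Chemokine genes varied widely from array to array. The log2 range over the 8 arrays exceeded 2 for 12 members (25.0%) and for 4.39% of all genes, and its median was 0.96 over the members and 0.53 over all genes. The 12 were Cxcl3, Ccr1, Ccl6, Ccl5, Cxcl11, Cxcl10, Cxcl2, Ccl20, Cxcr4, Cx3cl1, Ccl8 and Ccl17, of which 10 encode ligands. Of the 12, 8 also had r of at least 0.8 in size with the macrophage mean of the same cultures.

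**Figure D2:**
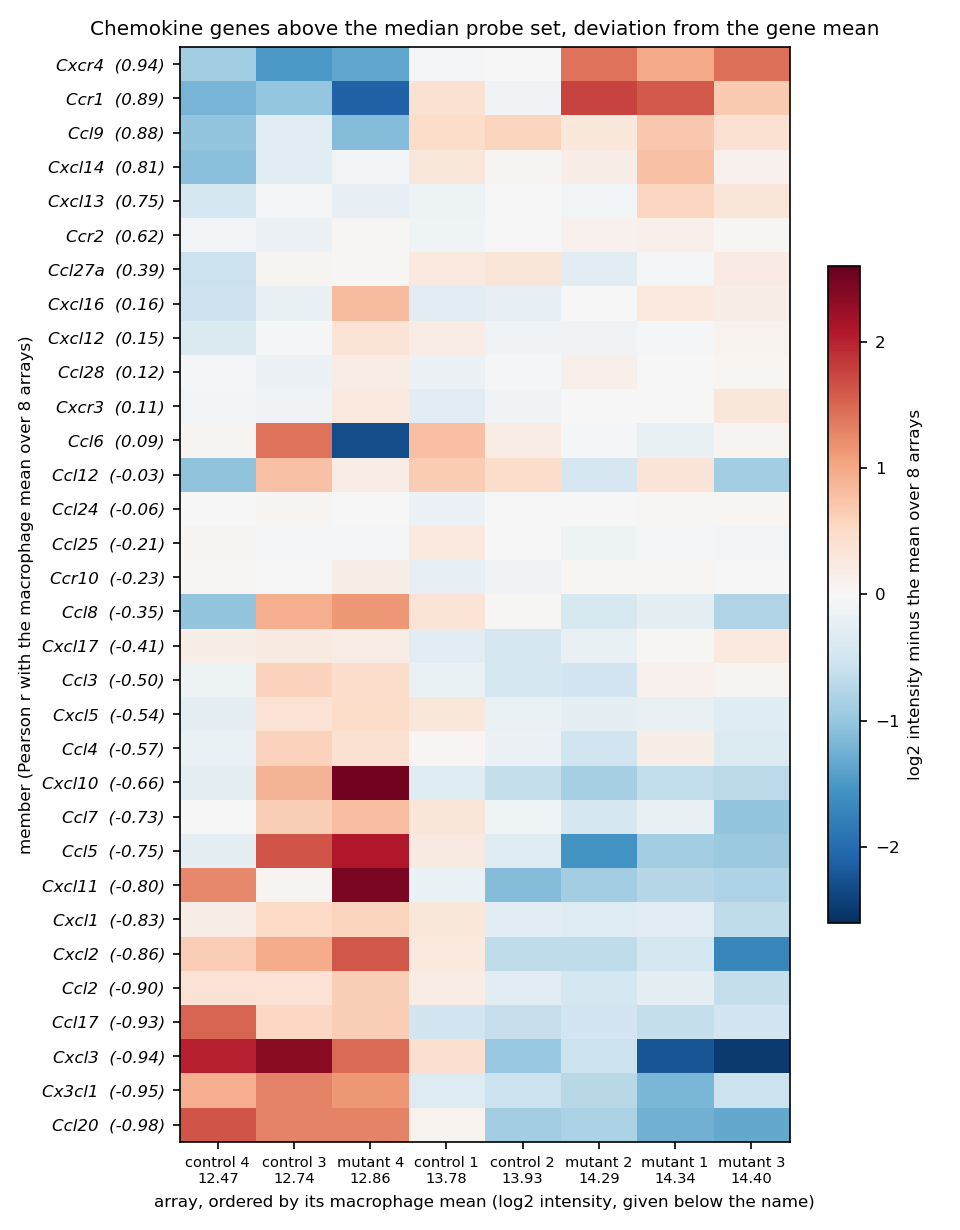
Each row is a member above the median probe set, with its Pearson r with the macrophage mean in parentheses, and each column an array in order of that mean. Colour shows the log2 intensity minus the gene's mean over 8 arrays, so the lower rows, among them Ccl20, Cx3cl1 and Cxcl3, are high (red) on the 3 arrays of low macrophage mean (control 4, control 3, mutant 4) and the top rows, Cxcr4, Ccr1 and Ccl9, are low (blue) there.

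The order by correlation runs from Cxcr4 to Ccl20. Over 8 arrays, r was at least 0.8 for 4 members (8.33%), Cxcr4 (0.94), Ccr1 (0.89), Ccl9 (0.88) and Cxcl14 (0.81), against 8.34% of all genes. It was at or below -0.8 for 9 members (18.8%), 8 ligands and the dim receptor Cxcr6, against 9.35% of all genes. The ligands at that end were Cxcl11 (-0.80), Cxcl1 (-0.83), Cxcl2 (-0.86), Ccl2 (-0.90), Ccl17 (-0.93), Cxcl3 (-0.94), Cx3cl1 (-0.95) and Ccl20 (-0.98). Members were sorted by this value, so it is a description and carries no test. The points share arrays and normalisation and fall into the 2 sets named above, and neither set holds the 6 needed for a correlation of its own. Mutant 4, control 3 and control 4, the arrays of low macrophage mean, were all of high bioB. Mutant 3 alone joined high bioB with a high macrophage mean. The 2 divisions thus largely coincide, and r does not tell them apart.

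The array means of the ligands and of the receptors above the median probe set are given side by side. The mean of the 27 ligands above the median probe set was 10.09, 9.95, 9.89 and 10.91 in mutants 1 to 4 and 10.44, 10.09, 10.87 and 10.39 in controls 1 to 4, with r = -0.83. The mean of the 5 receptors above it was 8.10, 8.22, 8.04 and 6.95 in mutants 1 to 4 and 7.49, 7.49, 7.01 and 7.11 in controls 1 to 4, with r = 0.93. Ligand means were highest on mutant 4 and control 3, where the receptor means were lowest. Among the 5 receptors, r was 0.94 for Cxcr4, 0.89 for Ccr1, 0.62 for Ccr2, 0.11 for Cxcr3 and -0.23 for Ccr10, and over all 15 receptors its median was -0.077, with 8 of the 15 negative.

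Among the ligands most opposed to the macrophage mean are Cxcl1, Cxcl2 and Cxcl3, which recruit neutrophils. The related ligands Cxcl5 and Cxcl15 had r = -0.54 and 0.30, and Cxcl15 was dim. Several ligands at the negative end are known targets of NF-kB. Cxcl1, Cxcl2 and Cxcl3 are close relatives on chromosome 5 that act through Cxcr2, and Ccl20 on chromosome 1 is the ligand of Ccr6. Over the 8 arrays Ccl20 had r = 0.88 with Cxcl1, 0.90 with Cxcl2 and 0.97 with Cxcl3. Their promoters are shown for this reason, and were picked after a match to the NF-kB consensus was seen close to each start. The 100 bases before the annotated start are given 5′ to 3′ (RefSeq, GRCm38.p6, all on the + strand), with every match, on either strand, in capitals.
Cxcl1, chr5:90891145-90891244: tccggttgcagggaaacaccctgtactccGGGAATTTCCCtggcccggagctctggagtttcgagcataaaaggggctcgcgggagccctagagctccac
Cxcl2, chr5:90903799-90903898: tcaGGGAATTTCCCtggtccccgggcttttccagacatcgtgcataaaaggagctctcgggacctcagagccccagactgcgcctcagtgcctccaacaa
Cxcl3, chr5:90786001-90786100: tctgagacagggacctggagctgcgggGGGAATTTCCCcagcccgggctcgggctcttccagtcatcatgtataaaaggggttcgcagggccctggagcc
Ccl20, chr1:83116666-83116765: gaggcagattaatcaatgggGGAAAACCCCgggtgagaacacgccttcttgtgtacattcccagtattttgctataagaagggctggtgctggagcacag
The capitals in Cxcl1, Cxcl2 and Cxcl3 are a pair of overlapping matches on opposite strands, which begin 71, 97 and 73 bases before the start, and the match in Ccl20 begins 80 bases before it. Of the 48 members, 35 had a promoter window in the RefSeq table, which reaches from 250 bases before to 50 after the start. A match was present in 9 of the 35 (25.7%), Ccl20, Ccl27a, Ccl9, Ccr3, Ccr6, Cxcl1, Cxcl10, Cxcl2 and Cxcl3, and in 5.14% of all 27025 genes with a window. Cxcl1, Cxcl2 and Cxcl3 are related in sequence and do not count as independent, and a match describes letters only. Among these 9 are both Ccl20, at the negative end of the order by macrophage mean, and Ccl9, near the positive end.

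Cxcl3, a neutrophil chemokine, spanned the widest range of all members. It read 6.35, 8.02, 6.10 and 10.05 in mutants 1 to 4 and 8.99, 7.59, 10.91 and 10.59 in controls 1 to 4. Mutants 1 and 3 lay under all controls, mutant 4 among the highest, and the genotypes overlapped. The difference was -1.89 (SE 1.01, 95% interval -4.21 to 0.43, adjusted p = 0.406 in limma). Cxcl2 read 10.88, 10.67, 9.65 and 12.95 in mutants 1 to 4 and 11.60, 10.67, 12.30 and 11.97 in controls 1 to 4, and Cxcl1 read 13.49, 13.45, 13.12 and 14.37 in mutants 1 to 4 and 14.08, 13.50, 14.29 and 13.94 in controls 1 to 4. Cxcl5, made by epithelial and stromal cells, read 13.47, 13.42, 13.34 and 14.14 in mutants 1 to 4 and 13.95, 13.48, 14.02 and 13.42 in controls 1 to 4. In Cxcl1, Cxcl2 and Cxcl5 mutant 4 was the highest of the 8 arrays, and mutant 3 the lowest. Genotype differences were -0.59 for Cxcl2, -0.35 for Cxcl1 and -0.13 for Cxcl5, with adjusted p between 0.575 and 0.812 in limma. Over the 8 arrays Cxcl1 followed Cxcl2 with r = 0.97 and Cxcl3 with r = 0.89.

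Ccl20, which draws cells that carry Ccr6, had the value most strongly opposed to the macrophage mean. It read 8.91, 9.33, 8.82 and 11.44 in mutants 1 to 4 and 10.25, 9.24, 11.44 and 11.79 in controls 1 to 4. The 3 arrays of low macrophage mean were the 3 highest for Ccl20, whichever the genotype. Its r was -0.98 (rho -0.98), -0.96 without the 2 arrays farthest from the median of the macrophage mean (controls 3 and 4), and -0.98 after each genotype's mean was subtracted. With controls 3 and 4 left out, mutant 4 is the only array of low macrophage mean, so each r given without them rests on that array. The genotype difference was -1.06 (SE 0.72, adjusted p = 0.512 in limma), and 0.11 (adjusted p = 0.789) once the macrophage mean entered the fit. For a gene of such r, that shift is given by construction. Cx3cl1, or fractalkine, a membrane-bound ligand whose receptor Cx3cr1 marks macrophages, read 8.42, 8.88, 9.05 and 10.73 in mutants 1 to 4 and 9.28, 9.05, 10.90 and 10.55 in controls 1 to 4. Its r was -0.95 (rho -0.79, -0.94 without the 2 arrays), and its difference -0.67 (adjusted p = 0.608 in limma). Cx3cr1 itself ran the other way, with r = 0.89 and a difference of 1.67 (SE 0.44, adjusted p = 0.189 in limma). Another Cx3cl1 probe set above the median differed by only -0.094 (unadjusted p = 0.649 in limma), with r = -0.80. The Cx3cl1 probe sets under the median differed by -0.40 and 0.021, with r = -0.80 and -0.032.

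Ccl17, a ligand of Ccr4 known from dendritic cells, read 7.16, 7.29, 7.29 and 8.42 in mutants 1 to 4 and 7.29, 7.17, 8.33 and 9.30 in controls 1 to 4. It was low on 5 arrays and higher on mutant 4 and controls 3 and 4, the 3 arrays of low macrophage mean. Its r was -0.93 and its difference -0.48 (adjusted p = 0.673 in limma). Without control 4 that difference was -0.057, so this array carried most of it. Of 6 dendritic cell markers, Flt3 and Batf3 were above the median probe set on every array, and Batf3 ran with the macrophage mean (r = 0.94). Their part in these values was not tested.

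**Figure D3:**
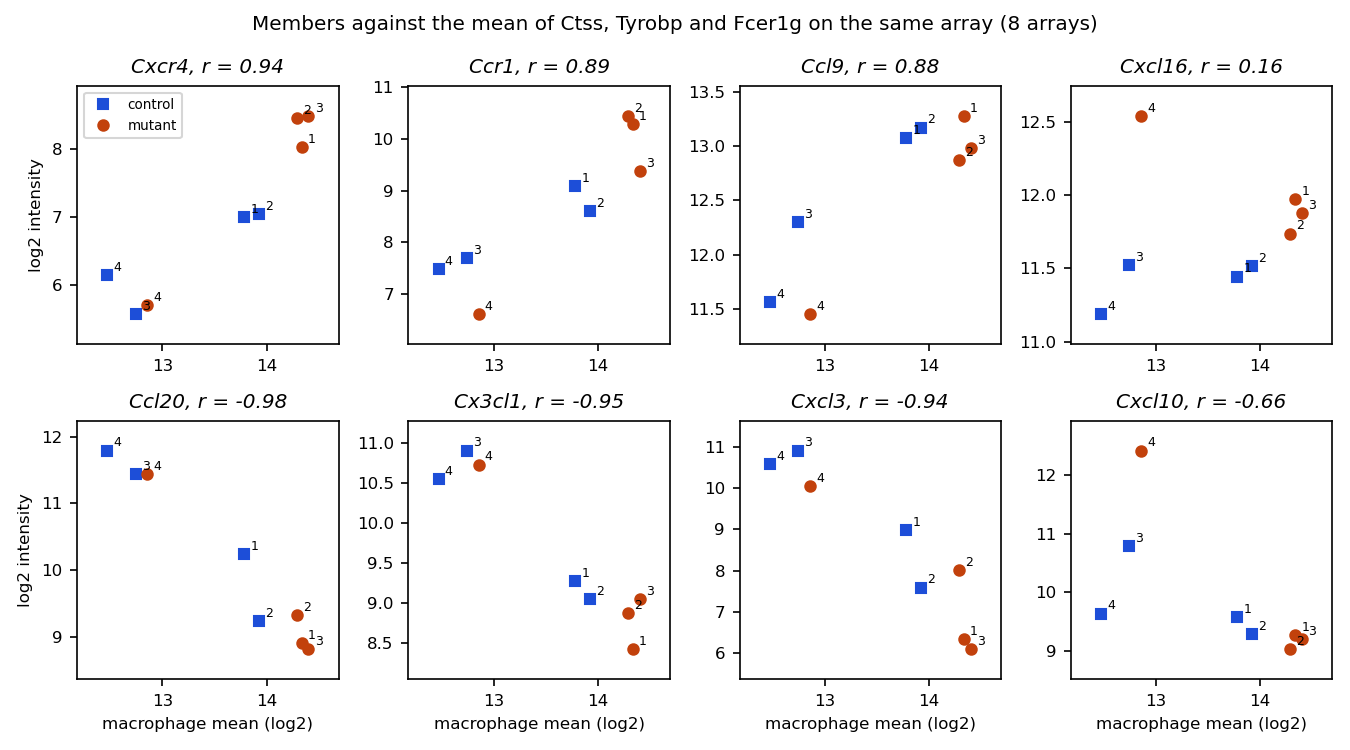
Log2 intensity of 8 members against the macrophage mean of the same array (log2), with squares for controls and circles for mutants, numbered by replicate. Ccl20, Cx3cl1 and Cxcl3 are high on the 3 arrays left of 13 and Cxcr4, Ccr1 and Ccl9 low there, while Cxcl16 is higher in mutants on both sides of the gap and Cxcl10 is highest on mutant 4.

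The ligands of Ccr2 attract monocytes, and all 4 read lower on average in mutants without passing the test. Ccl2, the main monocyte chemokine, read 13.87, 13.66, 13.50 and 14.74 in mutants 1 to 4 and 14.31, 13.83, 14.50 and 14.48 in controls 1 to 4. The genotypes overlapped, with mutant 4 the highest of all arrays and mutants 1 to 3 among the 4 lowest. The difference was -0.34 (SE 0.28, adjusted p = 0.594 in limma), and -0.60 (adjusted p = 0.0854) without mutant 4. Ccl7 read 13.13, 12.87, 12.30 and 14.11 in mutants 1 to 4 and 13.64, 13.21, 13.95 and 13.32 in controls 1 to 4, a difference of -0.43 (adjusted p = 0.596 in limma). Its order of arrays was close to that of Cxcl1, with r = 0.96 between them. Ccl12, a mouse chemokine close to Ccl2, read 12.61, 11.84, 11.38 and 12.46 in mutants 1 to 4 and 12.93, 12.72, 13.03 and 11.22 in controls 1 to 4, and Ccl8 read 10.18, 9.997, 9.64 and 11.55 in mutants 1 to 4 and 10.78, 10.45, 11.37 and 9.38 in controls 1 to 4. Neither followed the macrophage mean over all 8 arrays (r = -0.026 and -0.35). In both, control 4 read lowest and control 3 high, although both are arrays of low macrophage mean. Without controls 3 and 4, r for Ccl8 was -0.97. The differences were -0.41 for Ccl12 and -0.15 for Ccl8. Without control 4, Ccl12 differed by -0.83 with no overlap (unadjusted p = 0.0241, adjusted p = 0.281 in limma).

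Among the receptors, Cxcr4 and Ccr1 varied most. Cxcr4, the receptor for Cxcl12, read 8.03, 8.45, 8.48 and 5.70 in mutants 1 to 4 and 6.998, 7.04, 5.56 and 6.14 in controls 1 to 4. Mutants 1 to 3 lay above all 4 controls, and mutant 4 lay below 3 of the 4. The difference was 1.23 (SE 0.64, 95% interval -0.24 to 2.70, adjusted p = 0.389 in limma), a mean ratio of 2.35-fold. Ccr1, a receptor of monocytes, macrophages and neutrophils, read 10.29, 10.45, 9.38 and 6.61 in mutants 1 to 4 and 9.09, 8.61, 7.69 and 7.49 in controls 1 to 4. Mutants 1 to 3 again lay above all controls and mutant 4 below them, for a difference of 0.96 (SE 0.82, adjusted p = 0.605 in limma). Both followed the macrophage mean, Cxcr4 with r = 0.94 (rho 0.90, 0.96 without controls 3 and 4) and Ccr1 with r = 0.89 (rho 0.81, 0.93 without them).

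Mutant 4 decided the call for these receptors. With it left out, Cxcr4 differed by 1.88 (SE 0.36, adjusted p = 0.0295 in limma) and Ccr1 by 1.82 (SE 0.43, adjusted p = 0.0464). These were the only 2 members past the threshold then, against 7.23% of all genes. An unadjusted p under 0.05 was reached by 13 members without mutant 4 (27.1%, 5 higher and 8 lower), against 24.1% of all genes (10.2% higher and 14% lower). The 8 lower were Ccl2, Ccl5, Cxcl3, Ccl7, Cxcl1, Ccl20, Cxcl2 and Cx3cl1. With mutant 4 gone the macrophage mean also differed without overlap, at least 14.29 in mutants and at most 13.93 in controls, so macrophage content and genotype cannot be told apart in those arrays. Within the 4 arrays of low bioB, Cxcr4 differed by 1.22 and Ccr1 by 1.52, both past the threshold (11.5% of all genes were), as were Ccl5 (-1.19) and Ccl27a (-0.46). Within those of high bioB the values were 1.24, 0.40, -0.15 and 0.37, none past it (0% of all genes were). With the macrophage mean as a covariate over all 8 arrays, Cxcr4 differed by 0.26 and Ccr1 by -0.24, neither past the threshold. For genes that follow this mean so closely, the fit gives such a shift by construction.

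The ligands of Cxcr3 are induced by interferon, and Ccl5 by interferon and NF-kB. Cxcl10 read 9.26, 9.03, 9.20 and 12.42 in mutants 1 to 4 and 9.58, 9.29, 10.78 and 9.64 in controls 1 to 4, and Cxcl11 read 7.31, 7.14, 7.24 and 10.49 in mutants 1 to 4 and 7.88, 6.92, 8.12 and 9.30 in controls 1 to 4. Ccl5, or RANTES, read 10.10, 9.45, 10.03 and 13.09 in mutants 1 to 4 and 11.24, 10.68, 12.64 and 10.77 in controls 1 to 4. In all 3 genes mutant 4 was the highest array by a wide margin over the other mutants, and the genotypes overlapped. Genotype differences were 0.16 for Cxcl10, -0.0080 for Cxcl11 and -0.67 for Ccl5 (SE 0.75, 0.81 and 0.80, adjusted p between 0.724 and 0.997 in limma). Without mutant 4 they were -0.66, -0.82 and -1.47, none past the threshold. Cxcl9, the other ligand of this receptor, was dim. Of 11 T and NK cell markers, which would mark cells that carry Cxcr3, 7 were not above the median probe set in either genotype, and the mean of the list lay between 6.23 and 6.54 over the arrays.

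The Cxcl10 promoter is shown because mutant 4 stands apart in this gene and the window holds both motifs. The 250 bases before the start lie at chr5:92348890-92349139 (GRCm38.p6, - strand, 5′ to 3′, RefSeq), and the capitals mark an interferon-stimulated response element, GAAAGTGAAA at 213 bases before the start, and NF-kB matches at 159 and 103 bases before it.
Cxcl10, chr5:92348890-92349139: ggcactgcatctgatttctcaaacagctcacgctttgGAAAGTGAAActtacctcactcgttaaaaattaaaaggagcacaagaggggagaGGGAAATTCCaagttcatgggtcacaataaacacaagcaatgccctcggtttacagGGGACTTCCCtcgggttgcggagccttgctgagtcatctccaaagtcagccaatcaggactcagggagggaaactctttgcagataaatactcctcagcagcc
The response element was searched as GAAA, any 2 bases and GAAA on both strands and was found in 2 of 35 members (5.71%), Cxcl10 and Cxcl14, and in 3.99% of all genes with a window. Beside these genes, a list of 20 interferon-induced genes had array means of 9.87, 9.47, 9.68 and 10.23 in mutants 1 to 4 and 9.48, 9.45, 9.32 and 8.67 in controls 1 to 4, highest on mutant 4 and lowest on control 4. Of the 20, 0 passed the adjusted threshold, and 8 (40%, against 5.84% of all genes) read higher in mutants at an unadjusted p under 0.05, among them Usp18 (1.57), Rsad2 (0.76) and Ifit3 (1.13). Their part in the Cxcl10 and Cxcl11 values was not tested.

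Further CC ligands are products of macrophages themselves. Ccl6 and Ccl9, both ligands of Ccr1 in the mouse, read 10.41, 10.57, 10.69 and 8.31 in mutants 1 to 4 and 11.40, 10.81, 12.01 and 10.67 in controls 1 to 4 for Ccl6, and 13.28, 12.87, 12.99 and 11.45 in mutants 1 to 4 and 13.07, 13.17, 12.30 and 11.56 in controls 1 to 4 for Ccl9. Mutant 4 was the lowest array in both. Ccl6 had the largest difference downward after Cxcl3, -1.23 (SE 0.55, adjusted p = 0.329 in limma), and it was -0.67 without mutant 4. Mutants 1 to 3 (10.41 to 10.69) all lay under 3 of the 4 controls, while their macrophage mean was above that of every control. Ccl9 differed by 0.12 and followed the macrophage mean (r = 0.88, rho 0.67), while Ccl6 had r = 0.091 over 8 arrays, 0.74 without controls 3 and 4 and 0.59 after each genotype's mean was subtracted. Ccl3 and Ccl4, the inflammatory proteins MIP-1 alpha and beta, read 12.28 ± 0.40 against 12.20 ± 0.46 and 11.13 ± 0.43 against 11.29 ± 0.36 (SD, n = 4 each), with differences of 0.080 and -0.16. Both ranged over 1.10 on the log2 scale, beside 3.70 for Ccl6.

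Another set of ligands is known from developing and resting tissue. Cxcl12, the stromal ligand of Cxcr4, read 12.13, 12.09, 12.27 and 12.53 in mutants 1 to 4 and 12.36, 12.09, 12.14 and 11.80 in controls 1 to 4, a difference of 0.15 (SE 0.14, adjusted p = 0.632 in limma). Its range over the arrays was 0.73 beside 2.92 for its receptor. Ackr3, a receptor that clears Cxcl12 from the surroundings, read 11.36 ± 0.42 against 11.43 ± 1.08 (SD, n = 4 each), a difference of -0.063. Cxcl14, a ligand of skin and other epithelia and of fibroblasts, read 10.69, 10.10, 10.03 and 9.85 in mutants 1 to 4 and 10.22, 9.998, 9.64 and 8.84 in controls 1 to 4. It differed by 0.49 (SE 0.30, adjusted p = 0.469 in limma), and its r of 0.81 with the macrophage mean became 0.54 without controls 3 and 4, so it rests on those arrays. Without control 4 its difference was 0.22. Cxcl13, a B cell attractant that macrophages can make, read 8.03, 7.41, 7.80 and 7.27 in mutants 1 to 4 and 7.36, 7.50, 7.45 and 7.03 in controls 1 to 4. Mutant 1 was its highest array and control 4 its lowest, with a difference of 0.29 (adjusted p = 0.475 in limma) and r = 0.75. Ccl25, a ligand of thymus and gut, read 7.73, 7.63, 7.69 and 7.73 in mutants 1 to 4 and 8.02, 7.77, 7.72 and 7.83 in controls 1 to 4, a difference of -0.14 (adjusted p = 0.449 in limma). Its other probe set, also above the median, read -0.24 (unadjusted p = 0.0170 in limma).

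The remaining members above the median probe set stood near it. Cxcl17, a ligand of mucosal tissue, read 7.07 ± 0.20 against 6.91 ± 0.32, Ccl24, an eosinophil attractant, 7.54 ± 0.026 against 7.50 ± 0.096, and Ccl27a 7.42 ± 0.21 against 7.46 ± 0.40 (mutant against control, SD, n = 4 each). Ccl27a was read by a probe set that also matches other sequences, and its near-identical copy Ccl27b shares probe sets with it, so its value is uncertain. Of the 48 members, 17 had more than 1 probe set. Their 27 further probe sets agreed in sign with the one used in 19, and in all 10 of those that lay above the median probe set.

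Other genes of the chemokine system were read from lists. Of 15 genes outside the symbol pattern, 0 passed the adjusted threshold, 4 read higher (26.7%, against 5.84% of all genes) and 1 lower (6.67%, against 9.69%) at an unadjusted p under 0.05. Of all 15 differences, 10 were below 0, and their median was -0.063. The higher ones were Cx3cr1, Ccrl2 (0.29), an atypical receptor, Rarres2 (0.33), which encodes chemerin, and the dim Xcr1 (0.26), and the lower one Mif (-0.39), a cytokine that binds Cxcr4. Ppbp, a platelet chemokine of the Cxcl1 group, had r = -0.93, beside -0.94 for Cxcl3. Among 27 genes that carry the signal below the receptors, 0 passed the adjusted threshold, 11 read higher (40.7%, against 5.84% of all genes) and 1 lower at an unadjusted p under 0.05, with a median difference of 0.66. They include Pik3cg (1.40), the PI3 kinase gamma subunit, Pik3r5 (1.41), Dock2 (1.10), Rac2 (0.96) and Vav1 (1.40), all of which leukocytes express and fibroblasts mostly do not, and 14 of the 27 had r of at least 0.8 with the macrophage mean. Gnai1, the Gi subunit of many other tissues, differed by -0.81, with r = -0.92. The differences were 0.044 for Gnb1, 0.066 for Gnb2 and 0.022 for Rac1, and 1.17 for Arrb1, 1.13 for Grk3, 0.80 for Arrb2 and 0.14 for Cdc42. Of the 27 differences, 23 were above 0 and 4 below. The mean of the 20 macrophage markers was 12.58 ± 1.09 in mutant and 11.70 ± 0.81 in control arrays (SD, n = 4 each). The median of the 27 signalling genes differed in that direction, and the median of the 15 genes outside the pattern did not. The part of macrophage content in either list was not tested.

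Genes of the NF-kB pathway were read beside the ligands. Of 16 measured, 0 passed the adjusted threshold and 3 (18.8%, against 5.84% of all genes) read higher in mutants at an unadjusted p under 0.05, Nfkbiz (0.60), Ikbkb (0.26) and Cyld (0.26). Of all 16, 8 had a difference above 0 and 8 below. Their array means were 10.11, 10.16, 10.06 and 10.67 in mutants 1 to 4 and 10.19, 10.05, 10.49 and 10.16 in controls 1 to 4, highest on mutant 4 and control 3, which were also the 2 arrays of highest ligand mean. The feedback inhibitor gene Tnfaip3, itself an NF-kB target, had r = -0.86 with the macrophage mean, Nfkb2 -0.84 and Nfkbiz 0.90. Of the 16, 4 (25%) had r at or below -0.8, against 9.35% of all genes. At or above 0.8 was 1 (6.25%), against 8.34% of all genes. The part of NF-kB in the ligand values was not tested.

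With the macrophage mean in the fit as a covariate, the differences of Cxcr4, Ccl20, Cx3cl1 and Cxcl3 came closer to 0. Those of Ccl9 and Cxcl11 moved away from it. The covariate takes out each member's slope on the macrophage mean by construction, so for members of extreme r a shift was fixed in advance. Cx3cl1 went from -0.67 to 0.25 and Cxcl11 from -0.0080 to 1.24. None of the 48 members passed the adjusted threshold, against 0.0879% of all genes. An unadjusted p under 0.05 was reached by 9 members (18.8%), 7 higher and 2 lower, against 17.3% of all genes, 7.9% higher and 9.36% lower. The 7 higher were Cxcl16, Cxcl11, Cxcr3, Ccr10, Ccl28 and the dim Ccr4 and Ccr6, and the 2 lower were Ccl6 and Ccl9. Cxcl16 differed by 0.74 (SE 0.19, adjusted p = 0.162 in limma) and Cxcl11 by 1.24 (SE 0.37, adjusted p = 0.194). Ccl6 differed by -1.76 (SE 0.52, adjusted p = 0.191) and Ccl9 by -0.64 (SE 0.15, adjusted p = 0.142). Cxcl3 differed by -0.35, Cxcl1 by 0.00414 and Ccl2 by 0.062. The macrophage mean was higher by 0.74 in mutant arrays, so this fit also takes out part of the genotype difference.

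**Figure D4:**
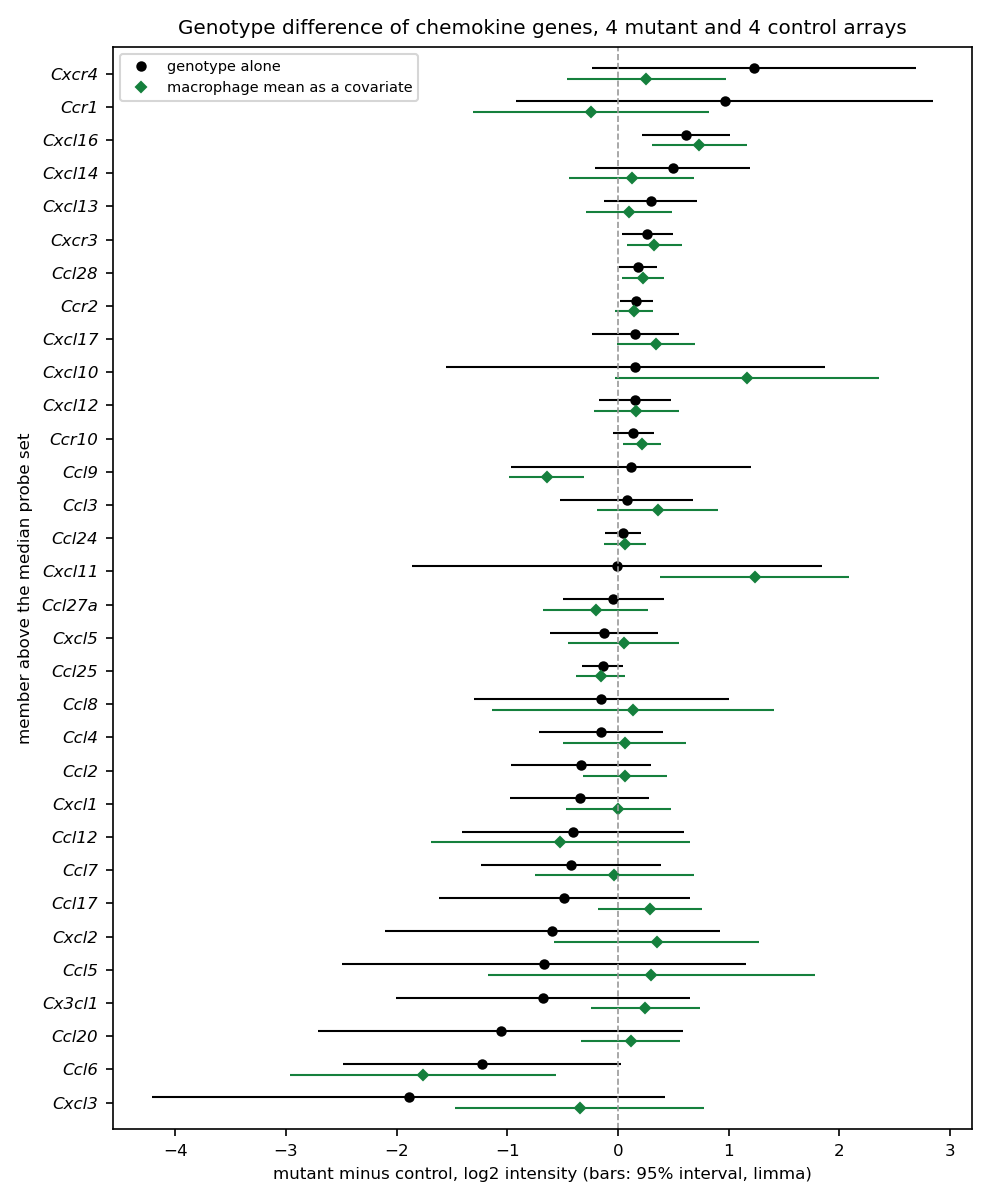
Mutant minus control difference in log2 intensity of the 32 members above the median probe set, with 95% intervals from limma, for genotype alone (black circles) and after adding the macrophage mean to the fit (green diamonds). Intervals of Cxcl16, Cxcr3 and Ccl28 lie above 0 in both fits. Those of Ccl20, Cx3cl1 and Cxcl3 narrow towards 0 with the covariate, which takes out the macrophage slope by construction. Ccl6 and Ccl9 move below 0.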

How the data were processed

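Biotin-labelled RNA of 8 cultures was read on Affymetrix mouse arrays, per the labels. The authors deposited 1 log2 intensity for each probe set and array, which the submitters' processing notes attribute to RMA (version not given in the sources used). RMA subtracts background, equalises the distributions of the arrays and summarises the probes of a set, so a change shared by most genes would not show. Array medians lay between 6.90 and 6.96, and no scaling was added.

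Samples were grouped by title. The 45101 probe sets held 64 controls, 34945 with 1 gene symbol, 932 with several and 9160 without an entry in the annotation. Names were updated by Entrez identifier for 34741 of them (RefSeq, GRCm38.p6). Each of 18193 genes was read by its brightest probe set. Mutant minus control was fitted in limma 3.58.1 under R 4.3.3 (lmFit, eBayes, 2-sided), with Benjamini-Hochberg adjustment over all genes and a threshold of 0.05. Tested on simulated data of this design, the fit found 67 of 100 genes given a log2 change of 1, 95 of 100 given a change of 2, and 4 wrong ones in 166 calls. The simulated noise was independent for each gene, so it left out shifts that genes share on an array. The changed genes were drawn at random, so these shares need not hold for members that vary widely. Correlations carry no test. Promoter windows come from RefSeq, and 13 members are not in that table.

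The members, marker lists and tests were chosen with earlier results of these data known. Values by array are given for the 10 members above the median probe set with the smallest p, the 6 brightest, and those at the ends of the order by r. The alternatives covered normalisation, centring, the choice of probe set, dim genes, the variance model, array weights, the spike-in controls, covariates and leaving out each array. The pan-macrophage covariate was chosen after seeing the data.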

Additional observations from a re-analysis of the deposited data

Results flagged for a closer look

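Mutant 4 stood apart in 6 of the 7 values listed here. In 64 groups of 4 arrays (32 members, 2 genotypes), 7 had a highest or lowest array whose gap to the next, divided by the range exceeded Dixon's critical value at the 95% level. That is 10.9%, where chance flags about 1 in 20 independent groups. These groups share arrays and hold correlated genes, so an excess over chance cannot be judged. Cxcr4 was lowest on mutant 4, at 5.70 against 8.03 to 8.48 on the other mutants. Ccl6 was lowest on mutant 4, at 8.31 against 10.41 to 10.69. Cxcl10 was highest there, at 12.42 against 9.03 to 9.26, and Cxcl11 at 10.49 against 7.14 to 7.31. Ccl17 read 8.42 on mutant 4 against 7.16 to 7.29 on the other mutants, and Cxcl5 14.14 against 13.34 to 13.47. Among controls, Cxcr3 was lowest on control 1, at 6.65 against 6.86 to 6.87. The macrophage mean of mutant 4 was 12.86 and that of mutants 1 to 3 between 14.29 and 14.40. The part of macrophage content in these values was not tested.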

How the results depend on the processing

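Of the 823 values recomputed, 738 kept their direction and their side of the threshold, or for counts and medians stayed near the value reported, 58 changed sign, 6 values of single genes passed the threshold, and 21 counts or medians moved. The count of members past the adjusted threshold, 0 of 48, became 4 within the arrays of low bioB and lay between 0 and 2 when single arrays were left out, with 2 only without mutant 4. The 4 members at an unadjusted p under 0.05 (against 15.5% of all genes) became 2 with arrays centred (16.9%), 11 with array weights (27.9%), 13 and 2 within the arrays of low and high bioB (28.6% and 5.21%), 9 with the macrophage covariate (17.3%) and 10 with the pan-macrophage covariate (17.3%), each percentage being the share of all genes, and 1 to 13 with single arrays left out. The 4 without overlap became 27 and 13 within the low and high bioB sets, where 2 arrays face 2 and 60.2% and 37.7% of all genes had none, and 4 to 10 with single arrays left out. The median difference of 0.035 became -0.026 without dim genes, -0.026 with the poly-A block, -0.017 within low bioB, 0.13 and 0.13 with the macrophage and pan-macrophage covariates, and -0.046 to 0.059 with single arrays left out.

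Some signs changed under the covariates, which by construction take out the macrophage slope. With the macrophage and pan-macrophage covariates in turn the values were -0.24 and -0.20 for Ccr1, -0.64 and -0.57 for Ccl9, 0.14 and 0.19 for Ccl8, 0.050 and 0.065 for Cxcl5, 0.061 and 0.064 for Ccl4, 0.30 and 0.32 for Ccl5, 1.24 and 1.16 for Cxcl11, 0.35 and 0.31 for Cxcl2, 0.062 and 0.043 for Ccl2, 0.29 and 0.18 for Ccl17, 0.25 and 0.17 for Cx3cl1 and 0.11 and 0.0076 for Ccl20, with Cxcl1 at 0.0041 under the former. Within the arrays of low bioB, Ccl9 read -0.047, Cxcl12 -0.12 and Cxcl10 -0.29. Within those of high bioB, Ccl27a read 0.37, Ccl24 read -0.015, Ccl8 read 0.22, Cxcl5 read 0.019 and Cxcl11 read 0.16. Array weights gave -0.020 for Cxcl12 and -0.18 for Cxcl10, and the poly-A block -0.078 for Ccl3 and -0.22 for Cxcl10. Ccl28 read -0.030 on its probe set of largest variance, and Cxcl11 0.011 after quantile normalisation and 0.015 over the mean of its probe sets. With single arrays left out the ranges that crossed 0 were -0.20 to 0.52 for Ccl9, -0.23 to 0.055 for Ccl27a, -0.0034 to 0.072 for Ccl24, -0.55 to 0.14 for Ccl8, -0.062 to 0.30 for Ccl3, -0.32 to 0.015 for Ccl4, -0.66 to 0.48 for Cxcl10 and -0.82 to 0.41 for Cxcl11. Apart from what the construction gives, the cause was not tested. Cxcl16, Cxcr3, Cxcr4, Cxcl14, Cxcl13, Ccr2, Ccr10 and Cxcl17 read higher in mutants in all 23 alternatives. Ccl6, Ccl12, Ccl25, Ccl7 and Cxcl3 read lower in all 23. The alternatives draw on the same 8 arrays. Cxcl16 passed the adjusted threshold in none, with adjusted p in limma from 0.0506 to 0.819. The genotypes share replicate numbers, which were not taken to pair the samples because 1 of the 4 same-numbered pairs did not deviate together (r = -0.092, the others 0.37 to 0.47, and 2 of 8 arrays correlated best with their own number). Replicates 1 and 2 differ from 3 and 4 in bioB in both genotypes. With a replicate block, 0 members passed the adjusted threshold and 5 (against 21.0% of all genes) had an unadjusted p under 0.05 in limma, Ccl6 (lower) and Cxcl14 now among them and Ccr2 (unadjusted p = 0.0540 in limma) not, and the calls over all genes went from 16 to 0. Signal at or under the median probe set limits the 16 dim members.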

Other observations

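Probe sets of several chemokine genes were outside the comparison and are given as values (log2 intensity, mean ± SD, n = 4 each). The pair shared by Ccl27a and Ccl27b, near-identical genes of skin-homing ligands, read 8.96 ± 0.17 in mutant and 8.95 ± 0.27 in control arrays for the brighter and 8.69 ± 0.25 in mutant and 8.57 ± 0.30 in control arrays for the other. The probe set of Ccl21a to Ccl21d, ligands of Ccr7 that guide dendritic cells and T cells into lymph nodes, read 7.43 ± 0.12 in mutant and 7.38 ± 0.060 in control arrays. The probe set of Ccl19, the other ligand of Ccr7, and its pseudogene read 6.74 ± 0.16 in mutant and 6.81 ± 0.060 in control arrays. Their unadjusted p in limma lay between 0.502 and 0.968, and Ccr7 itself was dim.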
